A study of Homo sapiens with 27 samples.

Results

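The genes described here are those of the mRNA export receptor NXF1 and of the proteins that load it onto mRNA: NXF1, NXT1, DDX39B, DDX39A, ALYREF, CHTOP and POLDIP3. They were taken by gene symbol, and each was found under its Ensembl gene ID, so that 7 of the 34464 genes of the deposited table were followed. All 7 had a mean above 1 FPKM (fragments scaled by transcript length and library size) and were among the 14611 genes kept for the tests.

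The libraries came from U2OS cells, a human osteosarcoma line, infected with lentivirus and kept for 5 days. The virus carried a scrambled control shRNA, the TPR shRNA 'TPR A' or the TPR shRNA 'TPR D'. TPR is a protein of the nuclear basket of the nuclear pore. For each of the 3 shRNAs 3 cultures were split into nuclear and cytoplasmic/ER RNA, with a part set aside as total RNA. Sequencing of the poly(A)+ RNA gave 27 libraries in 9 groups of 3. The labels do not say how the replicate cultures were separated, so the p-values measure the spread between these cultures, which may in part be technical.

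Most mRNA leaves the nucleus bound to a heterodimer of NXF1 and its small partner NXT1, which touches the lining of the pore and binds RNA only weakly by itself. The TREX complex brings the receptor to the RNA. In it the THO complex holds the DEAD-box RNA helicase UAP56, encoded by DDX39B, which places adaptors on the RNA and has a close relative, URH49, encoded by DDX39A. The adaptors ALYREF, CHTOP and POLDIP3 bind both the helicase and NXF1 and hand the RNA over to the receptor. What was measured here was the mRNA of these genes, not the proteins or their binding to RNA.

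DEAD-box helicases are named after a short motif of their ATP-binding core, and UAP56 and URH49 both carry the variant Asp-Glu-Cys-Asp. The coding sequence around it is shown because the levels of both genes rest on telling these mRNAs apart. Each window has 102 bases, 5′ to 3′, with the 4 codons of the motif in capitals, read from GENCODE release 44 transcripts placed on GRCh37. The DDX39B window spans 2 exons on the minus strand at chr6:31503237-31504352 and the DDX39A window 2 exons on the minus strand at chr19:14521121-14521876.
DDX39B: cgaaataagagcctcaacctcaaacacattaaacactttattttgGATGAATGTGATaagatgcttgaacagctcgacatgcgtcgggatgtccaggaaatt
DDX39A: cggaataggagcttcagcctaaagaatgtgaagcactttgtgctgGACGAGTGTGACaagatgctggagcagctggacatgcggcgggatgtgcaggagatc

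Of these bases 78 of 102 (76.5%) were identical. The Cys codon of the motif was TGT in both genes, and its other codons were spelled differently in each. Over the whole coding sequences 1025 of 1284 aligned positions (79.8%) were identical, against 385 of 428 aligned residues (90.0%) of the encoded proteins. The longest run of bases shared by both coding sequences was 26, and no stretch of 31 bases was shared by the protein-coding transcripts of the helicases. Reads that contain 31 or more bases of one helicase mRNA are thus not identical to the other.

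On GRCh37 the receptor gene NXF1 (ENSG00000162231) lies on the minus strand of chromosome 11 from 62559595 to 62573774, with 21 exons and 2290 nt in its canonical mRNA. It has 17 annotated transcripts, of which 5 are classed as retained intron, and 8 coding ones of 548 to 4128 nt. NXT1 (ENSG00000132661) lies on the plus strand of chromosome 20 from 23331428 to 23335408, with 2 exons and 1062 nt in its only transcript. DDX39B (ENSG00000198563) lies on the minus strand of chromosome 6 from 31497996 to 31510225, with 11 exons and 1681 nt. DDX39A (ENSG00000123136) lies on the minus strand of chromosome 19 from 14519610 to 14530195, with 11 exons and 1498 nt.

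Among the adaptor genes, ALYREF (ENSG00000183684) lies on the minus strand of chromosome 17 from 79845711 to 79849462, with 6 exons and 1097 nt. CHTOP (ENSG00000160679) lies on the plus strand of chromosome 1 from 153606458 to 153618782, with 6 exons and 2079 nt. POLDIP3 (ENSG00000100227) lies on the minus strand of chromosome 22 from 42979727 to 43010968, with 9 exons and 3362 nt.

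Some of these loci are shared. ALYREF overlaps ANAPC11 on the opposite strand, which was at 92.7 to 536 FPKM (median 178). The overlap is that of the gene coordinates, and overlap of exons was not examined. Reads from any exonic stretch that both share can be told apart only where strand was used. The kit kept strand, and whether the quantification used it is not given in the sources used here. DDX39B shares 2051 of its 2961 31-base stretches (69.3%) with the readthrough gene ATP6V1G2-DDX39B, listed at 0 to 2.84 FPKM (median 0.410). POLDIP3 shares 93.2% of its 31-base stretches with ENSG00000289517, a gene of the later annotation for which no value was used here. The protein-coding transcripts of NXF1, NXT1, ALYREF, DDX39A and CHTOP shared none with transcripts of other protein-coding or lncRNA genes. Pseudogenes and opposite-strand sequence were not searched.

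TPR mRNA, the target, was at 25.3 to 28.2 FPKM in the control total libraries and at 3.23 to 6.01 in those of the TPR-depleted cultures. It fell in total RNA with TPR A (log2 change -2.59, limma adjusted p = 0.00120) and with TPR D (-2.44, limma adjusted p = 0.00160). The mesenchymal marker VIM was at 854 to 2662 FPKM over all libraries, and of the bone genes SPARC, COL1A1, RUNX2 and ALPL were expressed while COL1A2, SP7 and BGLAP were below 1 FPKM in every library. Of the markers of other cell types, EPCAM was at 1.43 to 6.87 FPKM, CDH1 at 0.216 to 1.67, the leukocyte gene PTPRC at 0.0271 to 1.22 and the liver gene ALB at 0 to 0.0481.

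A pair of control libraries went against their fraction labels. The 13 mRNAs of the mitochondrial genome took 0.774 to 2.42% of the FPKM in the other 8 nuclear libraries, but 21.8% in the library labelled control nuclear replicate 2. They took 15.8 to 24.7% in the other 8 total libraries, but 0.738% in the library labelled control total replicate 2. The nuclear lncRNA MALAT1 was at 83.6 FPKM in the former and 16.3 in the latter, against 22.1 and 40.1 in the other control nuclear and 82.1 and 122 in the other control total libraries. The labels were kept, and results are also given without control replicate 2, which was named after these values were seen.

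The export genes spanned a wide range of levels. Averaged over the 27 libraries DDX39B had the highest level, 931 FPKM, above 99.0% of the kept genes. ALYREF followed at 156, DDX39A at 145, CHTOP at 112, POLDIP3 at 57.3, NXF1 at 34.4 and NXT1 at 21.2 FPKM, the last above 63.1% of the kept genes. DDX39B was above ALYREF in 27 of 27 libraries, by 3.61 to 8.85 times. ALYREF and DDX39A were not set apart: their ratio ran from 0.888 to 1.49, with ALYREF above in 21 of 27 libraries. DDX39A was above CHTOP in 21 of 27, CHTOP above POLDIP3 in 27 of 27, POLDIP3 above NXF1 in 26 of 27 and NXF1 above NXT1 in 23 of 27. The receptor and its partner were thus the least abundant mRNAs of the set, and the helicase of TREX the most abundant.

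Depth was estimated from the spacing of the lowest values. On 1 kb of effective transcript length, 1 FPKM was worth 46.5 to 62.5 nuclear reads, 32.8 to 49.3 cytoplasmic/ER reads and 41.9 to 90.5 total reads. On the canonical mRNA the values then rest on about 492 to 1226 reads for NXT1, 1714 to 5427 for NXF1 and 36414 to 108064 for DDX39B. Counting error alone at the fewest reads was 4.5% for NXT1, 2.4% for NXF1 and 0.52% for DDX39B, below the spread between cultures given for each gene in what follows.

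**Figure D1:**
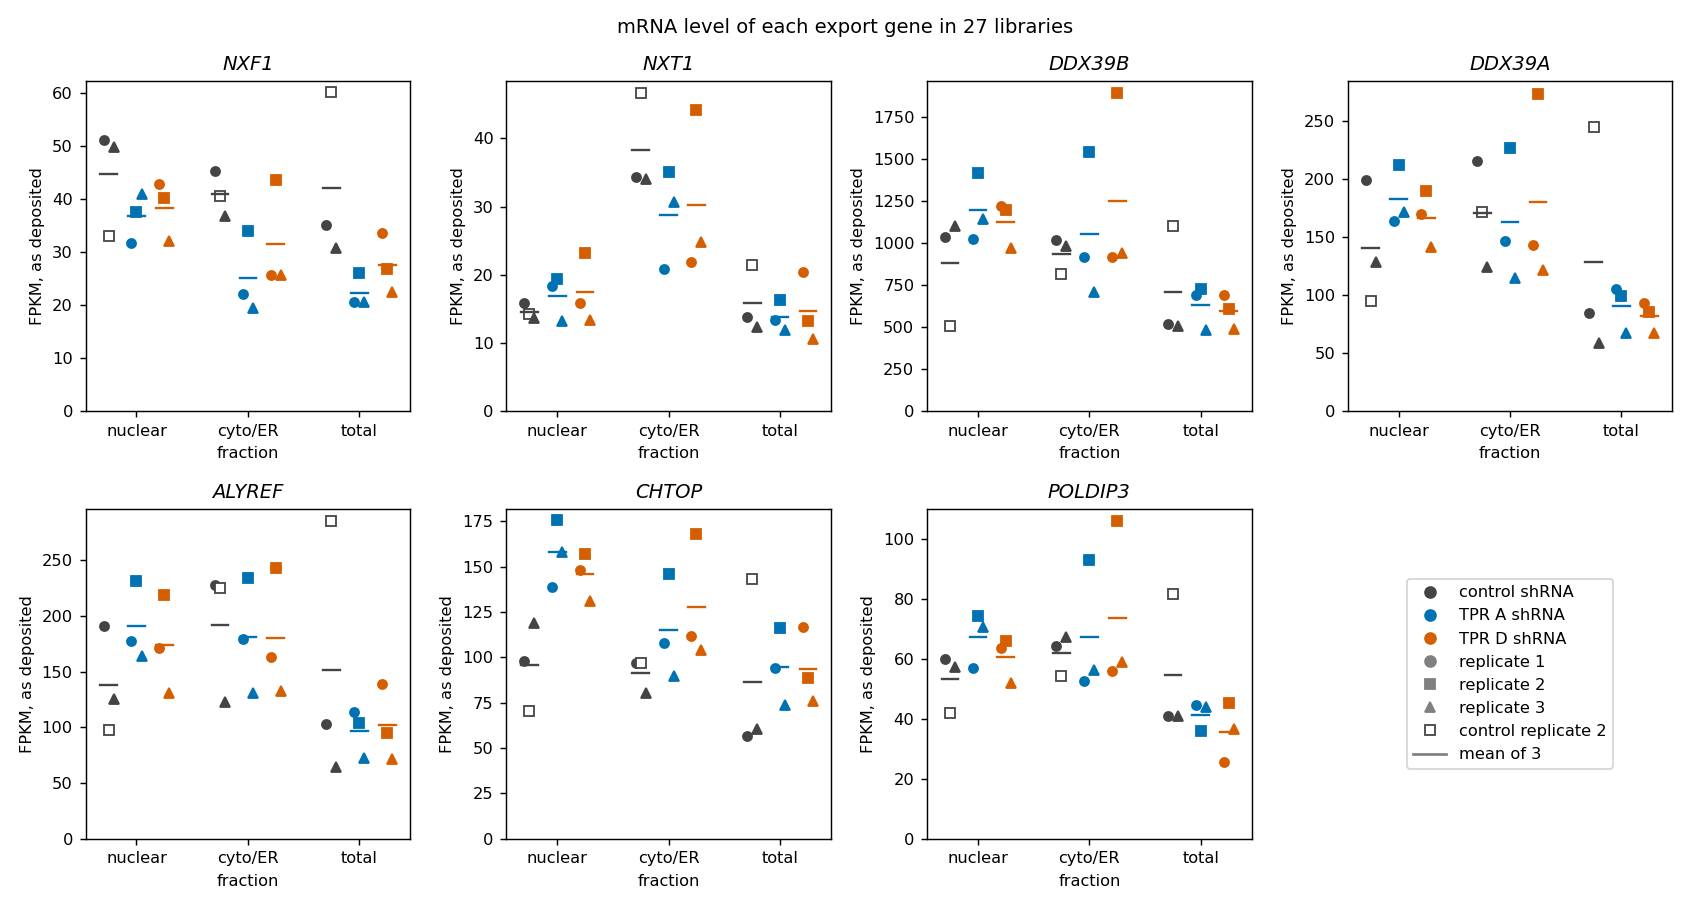
FPKM as deposited (vertical axes, from 0) of the 7 export genes in each nuclear, cytoplasmic/ER and total library, coloured by shRNA, with a symbol for each replicate, lines at the mean of 3 and control replicate 2 drawn open. In the total fraction the open square is the highest point of each panel, for example 60.2 FPKM for NXF1 and 285 for ALYREF.

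The first comparison asked how each mRNA was distributed between nucleus and cytoplasm in control cells. The N/C ratio is the nuclear over the cytoplasmic/ER level on the log2 scale after division by median-of-ratios factors and addition of 0.1. A value of 0 is the ratio of the median gene, since the amounts of RNA per nucleus and per cytoplasm were not measured, and it is not an even split of molecules. The NXT1 mRNA was more cytoplasmic than the median mRNA, and the other 6 did not pass the test.

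NXT1, the small partner that NXF1 needs to bind the pore, was at 15.9, 14.3 and 13.7 FPKM in the nuclear libraries of control replicates 1, 2 and 3, and at 34.3, 46.6 and 34.0 in the cytoplasmic/ER ones. Each nuclear value lay below each cytoplasmic/ER value, and the share of all genes whose control fractions were set apart so was not counted. The log2 N/C ratios were -1.07, -1.65 and -1.28, a mean of -1.33 ± 0.29 (SD, n = 3). In the limma fit over all genes the difference had a 95% interval of -1.93 to -0.74 and an adjusted p of 0.000995. Of all genes tested 39.4% passed the same threshold in this comparison, so that 1 of 7 export genes was not a high share. Without control replicate 2 the value was -1.18 (limma adjusted p = 0.0155), and the adjusted p over all alternatives ran from 0.000114 to 0.0155. The direction held in all 9 cultures, control and TPR-depleted, with log2 ratios of -1.65 to -0.17. The share of all genes with the same direction in all 9 was not counted.

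NXF1, the receptor itself, was at 51.2, 33.0 and 49.8 FPKM in the control nuclear libraries and at 45.3, 40.6 and 36.8 in the cytoplasmic/ER ones, and these overlapped. Its log2 N/C ratios of 0.21, -0.25 and 0.47 averaged 0.14 ± 0.37 (SD, n = 3), with an interval of -0.39 to 0.67 (limma adjusted p = 0.687). The ratio of NXF1 was above that of its partner NXT1 in 9 of 9 cultures, as was that of each other export gene. These differences between genes were not tested.

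The helicase mRNAs lay near the median gene. DDX39B was at 1036, 505 and 1102 FPKM in the control nuclear and 1015, 815 and 982 in the cytoplasmic/ER libraries, with a mean log2 N/C ratio of -0.13 ± 0.45 (SD, n = 3). DDX39A was at 199, 95.2 and 129 FPKM in the nuclear and 216, 172 and 124 in the cytoplasmic/ER libraries, with a mean of -0.27 ± 0.47 (SD, n = 3). For both the lowest nuclear value was that of control replicate 2, and the fractions overlapped.

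Of the adaptors, ALYREF, the founding export adaptor, had log2 N/C ratios of -0.23, -1.16 and 0.06. CHTOP, a chromatin-associated arginine-rich adaptor, had 0.05, -0.42 and 0.60. POLDIP3, also known as SKAR, had -0.07, -0.33 and -0.20, the only one of the 3 below 0 in each control culture. None passed the test (limma adjusted p of 0.396, 0.853 and 0.596). Control replicate 2 was the lowest of the 3 control cultures for each of the 7 genes.

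**Figure D2:**
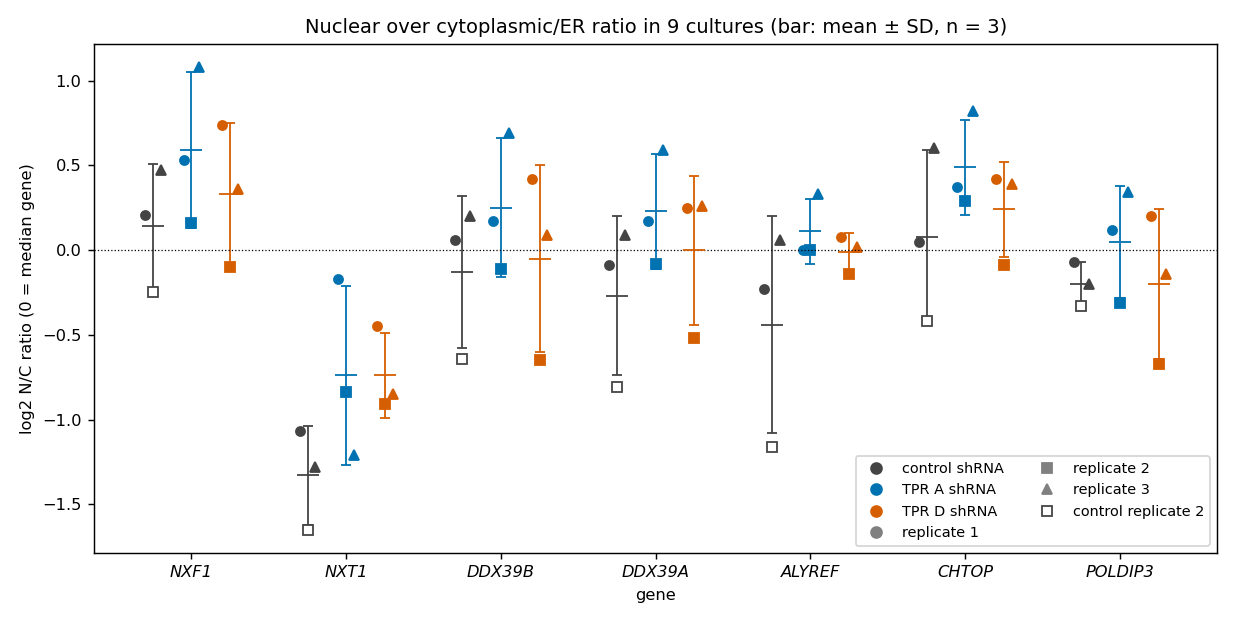
Log2 ratio of nuclear to cytoplasmic/ER level (vertical axis, 0 is the median gene) of each export gene in 9 cultures, coloured by shRNA, with a symbol for each replicate, the mean and SD of 3 cultures as a bar, and control replicate 2 drawn open. NXT1 lies below 0 in 9 of 9 cultures, and the open square is the lowest control point for each gene.

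The next comparison was of the overall mRNA level in TPR-depleted and control cells, in the total fraction. With all cultures NXF1 had the largest decrease among the 7 genes with TPR A and CHTOP was the only one with an increase. Without control replicate 2, 6 of the 7 lay above 0 with TPR A and 5 with TPR D. None of the 7 passed the threshold. The counts were 0 of 7 for TPR A, TPR D and both shRNAs together. Of all genes tested 0.821% passed with TPR A, 0.753% with TPR D and 1.14% with both together. At an unadjusted limma p below 0.05 stood 1 export gene with TPR A, 0 with TPR D and 1 with both, in each case NXF1. The shares of all genes below it were 12.6%, 14.6% and 16.1%. These counts rest on control replicate 2: when it was left out, NXF1 and CHTOP were below 0.05 with TPR A. CHTOP alone was so with TPR D and with both shRNAs, beside 8.41%, 9.05% and 8.58% of all genes.

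NXF1 was at 35.1, 60.2 and 30.8 FPKM in the control total libraries, at 20.5, 26.0 and 20.5 with TPR A and at 33.6, 26.8 and 22.4 with TPR D. With TPR A each value lay below each control value, while with TPR D the highest value lay above the lowest control. The log2 change was -0.79 with TPR A (95% interval -1.32 to -0.26, limma adjusted p = 0.163) and -0.48 with TPR D (-1.01 to 0.05, limma adjusted p = 0.385). For both shRNAs together it was -0.64 ± 0.22 (standard error), with an unadjusted limma p of 0.00860 and an adjusted p of 0.156. Leaving out control replicate 2 gave -0.54 and -0.23, and -0.38 for both shRNAs together (limma adjusted p = 0.703), no longer below 0.05 unadjusted. Within replicate 1, whose labels are written in another style than those of the other cultures, NXF1 was at -0.73 with TPR A and 0.01 with TPR D. Within replicates 2 and 3 it was at -0.82 and -0.73.

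The replicate numbers of the control and TPR A cultures deviated together in the total fraction. Blocking the fit on the replicate number raised the genes called with TPR A from 120 to 378, again with 0 of the 7 export genes. The adjusted limma p of NXF1 was 0.0787 in this fit with the replicate block. Likewise 461 instead of 110 passed with TPR D and 560 instead of 166 with both shRNAs, where the numbers did not pair in each replicate.

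Groups that do not overlap are frequent with 3 cultures against 3. In total RNA 18.1% of all genes had the 3 TPR A cultures all above or all below the 3 controls, and 16.1% had the TPR D cultures so. Among the export genes 1 of 7 did so with TPR A, which was NXF1, and 0 of 7 with TPR D. For 6.92% of all genes, and for 0 of the 7 export genes, all 6 depleted cultures lay on one side.

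CHTOP was at 56.9, 143 and 60.6 FPKM in the control total libraries, at 94.3, 116 and 73.8 with TPR A and at 117, 88.4 and 75.7 with TPR D. The value of 143 belongs to control replicate 2, and all 6 TPR-depleted values lie above the other controls. The log2 change was 0.30 with each shRNA (95% interval -0.29 to 0.89 for TPR A and -0.29 to 0.88 for TPR D). Without control replicate 2 it was 0.69 with each (limma adjusted p = 0.356 and 0.336). Then CHTOP was the only export gene with the depleted cultures on one side, as 11.8% of all genes were. Within replicate 1 CHTOP was at 0.77 and 1.10 for the shRNAs in the same order. Within replicates 2 and 3 it was at 0.06 and -0.10.

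NXT1 was at 13.8, 21.4 and 12.3 FPKM in control total RNA, at 13.3, 16.3 and 11.9 with TPR A and at 20.4, 13.2 and 10.5 with TPR D, and the groups overlapped. Its log2 changes were -0.10 and -0.04. The receptor's partner thus showed values near 0 where NXF1 lay lower, but the difference between these genes was not tested.

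The helicases and the remaining adaptors also overlapped with control. DDX39B was at 517, 1103 and 507 FPKM in control total RNA and at 480 to 727 in the depleted cultures. DDX39A was at 84.7, 245 and 58.8 FPKM in control and at 67.6 to 105 in depleted cultures. ALYREF was at 103, 285 and 64.0 FPKM in control and at 71.4 to 139 in depleted cultures. In each of these genes the depleted values fell between the control of replicate 2 and the lowest control or just beneath that control. Without control replicate 2 the log2 changes of all of them turned from below to above 0, for example from -0.31 to 0.25 for ALYREF with TPR A.

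POLDIP3 was at 40.8, 81.5 and 41.0 FPKM in control total RNA, at 44.5, 35.9 and 43.9 with TPR A and at 25.5, 45.1 and 36.6 with TPR D. The log2 values were -0.26 for TPR A cultures and -0.49 for TPR D cultures (limma adjusted p = 0.732 and 0.417), and 0.04 and -0.19 without control replicate 2. The median log2 change of the 7 genes was -0.26 for both shRNAs together, against -0.01 over all genes, and 0.28 without control replicate 2. The sign of that median was therefore set by 1 culture.

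In the nuclear fraction 0 of 7 export genes passed with either shRNA, as against 0.903% of all genes with TPR A and 0.479% with TPR D. At an unadjusted limma p below 0.05 stood 1 gene with each shRNA, CHTOP, beside 12.2% of all genes with TPR A and 9.13% with TPR D. Leaving out control replicate 2, CHTOP stayed below 0.05 with TPR A but not with TPR D. With each shRNA 6 of 7 lay above 0, and the median log2 change was 0.44 with TPR A and 0.31 with the other shRNA. NXF1 was the gene below 0. Over all genes 48.3% and 48.8% lay above 0. With control replicate 2 left out the medians were 0.20 and 0.08, still with 6 of 7 genes above 0. Within replicate 1 ALYREF (-0.05), DDX39A (-0.22) and POLDIP3 (-0.03) also lay below 0 with TPR A.

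CHTOP was at 98.0, 70.3 and 119 FPKM in the control nuclear libraries, at 139, 176 and 158 with TPR A and at 148, 157 and 131 with TPR D. Every depleted culture lay above every control culture, which held for CHTOP alone of the 7 export genes and, in either direction, for 6.21% of all genes. Taken by shRNA, CHTOP was again the 1 gene of 7 whose cultures did not overlap with control, as compared with 17.2% of all genes for TPR A and 15.4% for TPR D. Its log2 change was 0.75 with TPR A (95% interval 0.17 to 1.34, limma adjusted p = 0.246) and 0.64 with TPR D (0.06 to 1.23, limma adjusted p = 0.488). They were 0.55 and 0.44 without control replicate 2. Values within replicate 1 were 0.56 and 0.62, and those within replicates 2 and 3 were 0.85 and 0.65.

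NXF1 was at 51.2, 33.0 and 49.8 FPKM in the control nuclear libraries, at 31.7, 37.5 and 40.9 with TPR A and at 42.8, 40.2 and 32.0 with TPR D. The depleted values all lay below those of control replicates 1 and 3 and around that of replicate 2. With replicate 2 left out, 2 of 7 genes had all depleted cultures on one side of control, CHTOP above and NXF1 below, as had 12.8% of all genes. The log2 changes of NXF1 were -0.26 and -0.20 with all cultures and -0.46 and -0.39 without replicate 2.

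In the cytoplasmic/ER fraction 0 of 7 passed as well, beside 0.623% of all genes with TPR A and 0.575% with TPR D. At an unadjusted limma p below 0.05 stood NXF1 with TPR A and no export gene with TPR D, beside 11.6% and 9.42% of all genes. Leaving out control replicate 2 put CHTOP below 0.05 with TPR D. NXF1 was at 45.3, 40.6 and 36.8 FPKM in control, at 22.0, 33.9 and 19.4 with TPR A and at 25.7, 43.5 and 25.7 with TPR D. The TPR A values all lay below control, while TPR D replicate 2 lay within it. The log2 change was -0.71 with TPR A (95% interval -1.24 to -0.18, limma adjusted p = 0.241) and -0.39 with TPR D (-0.92 to 0.14, limma adjusted p = 0.738). It was -0.71 and -0.39 without control replicate 2 too.

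The cytoplasmic/ER library of control replicate 2 had a mitochondrial share in the range of its fraction. The levels compared here are thus not those of the libraries that went against their labels. The spread behind the intervals and p-values was estimated over all 27 libraries, these included. NXF1 alone was set apart from control with TPR A, 1 of 7 where 15.8% of all genes were. CHTOP alone was set apart with TPR D, 1 of 7 where 13.8% of all genes were. CHTOP was at 96.9, 96.9 and 80.1 FPKM in control, at 108, 146 and 90.0 with TPR A and at 112, 168 and 104 with TPR D. Its log2 changes were 0.34 and 0.48 (limma adjusted p = 0.739 and 0.673). With both shRNAs 0 of 7 genes were set apart, as were 5.39% of all genes, and 0 of 7 again without control replicate 2, as were 8.38%.

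NXT1 was at 34.3, 46.6 and 34.0 FPKM in the control cytoplasmic/ER libraries, at 20.8, 35.0 and 30.7 with TPR A and at 21.8, 44.1 and 24.8 with TPR D. In each shRNA 1 or more depleted cultures lay among the controls. Its log2 changes were -0.40 and -0.37 (limma adjusted p = 0.678 and 0.803). For DDX39B, DDX39A, ALYREF and POLDIP3 the changes ran from -0.06 to 0.36, and the highest depleted value belonged to TPR D replicate 2 in each of them, for example 1892 FPKM for DDX39B.

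**Figure D3:**
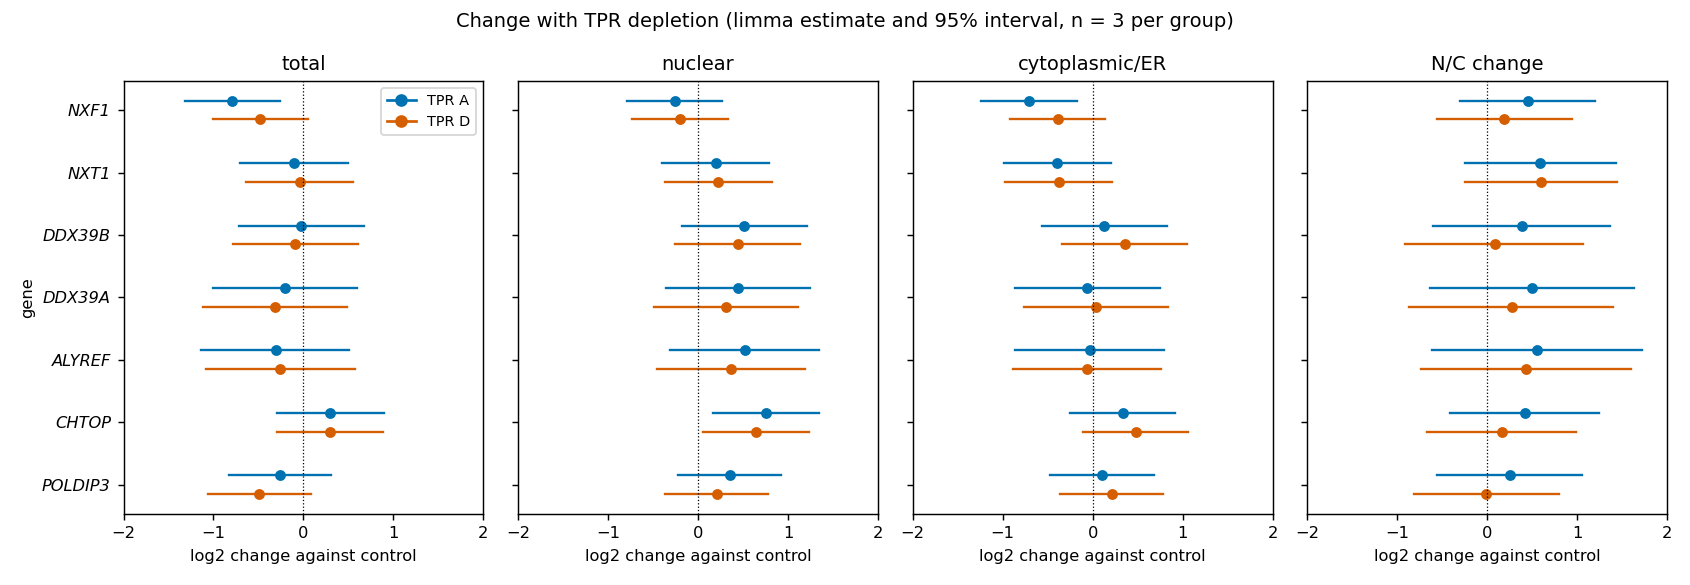
Log2 change against control (horizontal axes) of each export gene with TPR A and with TPR D in total, nuclear and cytoplasmic/ER RNA and in the N/C ratio, as limma estimates with 95% intervals (n = 3 per group). Intervals that leave out 0 are those of NXF1 with TPR A in total and cytoplasmic/ER RNA and of CHTOP with both shRNAs in nuclear RNA, none of them past the adjusted threshold.

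Then the N/C ratios were compared between TPR-depleted and control cells, to see whether the mRNAs of the export machinery shifted toward the nucleus. No export gene passed. Neither shRNA gave any call: 0% of all genes tested passed with either or with both pooled. At an unadjusted limma p below 0.05 were 0 of the 7 genes in each of these fits. The shares of all genes below it were 1.47% with TPR A, 0.821% with TPR D and 1.72% with both. The lowest adjusted limma p of an export gene was 0.987. The fit took both fractions of a culture as independent, although their deviations from group means were correlated (r of 0.223 to 0.469). Pairing was thus not used, and the intervals of N/C ratios and changes may be wider than in a paired fit. In a fit that blocked on the culture, 0 of the 7 genes passed as well.

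The fitted N/C changes of the 7 genes were all above 0 with TPR A, from 0.25 for POLDIP3 to 0.59 for NXT1, where 50.2% of all genes were above 0. With TPR D 6 of 7 were above 0, from -0.01 for POLDIP3 to 0.60 for NXT1. When control replicate 2 was left out the counts were 7 of 7 with TPR A and 3 of 7 with TPR D. Both comparisons share the control cultures.

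NXT1 had the highest values. Its log2 N/C ratios were -1.07, -1.65 and -1.28 in control, -0.17, -0.84 and -1.21 with TPR A and -0.45, -0.91 and -0.85 with TPR D. With TPR A the lowest culture lay within the range of control, while with TPR D all 3 lay above it, as did NXT1 alone of the 7 genes and, in either direction, 10.6% of all genes. No export gene was set apart with TPR A, as 16.2% of all genes were, or with both shRNAs together, as 4.60% were. With both shRNAs and without control replicate 2 none was set apart either, as 6.60% of genes were. For both shRNAs the change was 0.59 ± 0.35 (standard error), with a 95% interval of -0.13 to 1.32 (limma adjusted p = 0.999), and 0.44 without control replicate 2.

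ALYREF came next with 0.49 for both shRNAs (95% interval -0.52 to 1.50), but with 0.13 without control replicate 2. DDX39A was at 0.38, NXF1 at 0.32, CHTOP at 0.29, DDX39B at 0.23 and POLDIP3 at 0.12, and without control replicate 2 at 0.11, 0.12, 0.04, -0.03 and 0.06. For both shRNAs the intervals of all 7 genes included 0 and had upper ends of 0.82 or more. A shift of 0.82 was thus not excluded for any of them by this fit, which did not pair the fractions.

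The genes differ in length, and the order of their N/C changes was compared with it as a description. ALYREF, of 3752 nt, and NXT1, of 3981 nt, are the shortest genes and had the highest changes. POLDIP3, of 31242 nt, is the longest and had the lowest. DDX39A, DDX39B, CHTOP and NXF1, of 10586 to 14180 nt, lay between. Without control replicate 2 POLDIP3 was not the lowest: it was at 0.06, above CHTOP (0.04) and DDX39B (-0.03). Spearman's rho between gene length and N/C change was -0.821 over the 7 genes and -0.536 without control replicate 2. These genes share all libraries and controls. Over 12333 kept protein-coding genes rho was -0.498, and the median change ran from 0.32 in the shortest of 10 equal length classes to -0.23 in the longest.

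**Figure D4:**
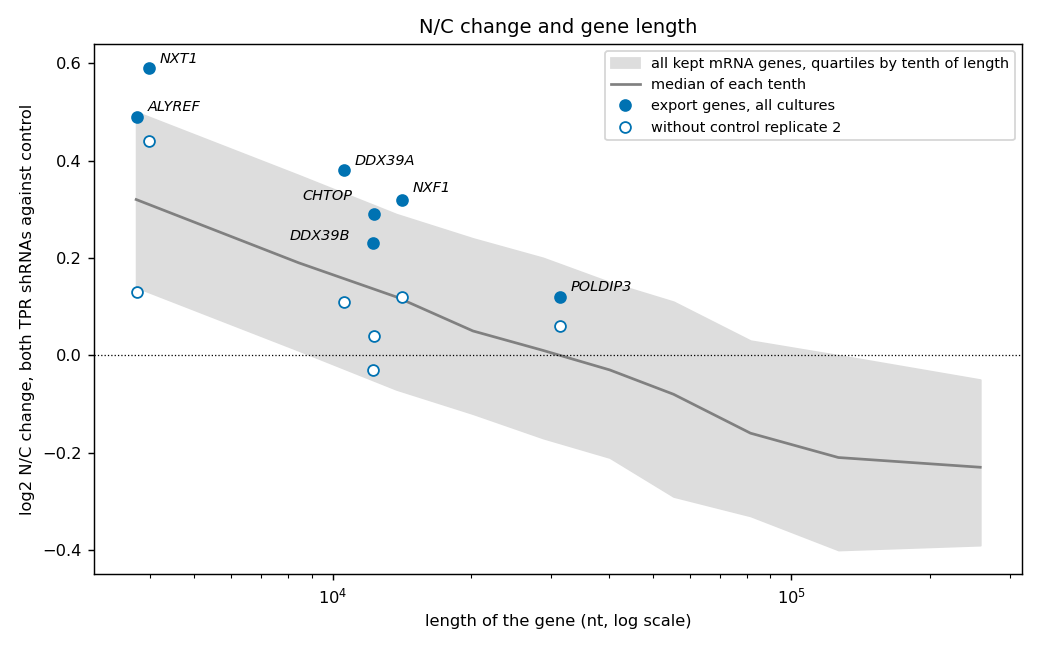
Log2 N/C change with both TPR shRNAs (vertical axis) against the length of the gene (horizontal axis, log scale) for the 7 export genes, with all cultures (filled) and without control replicate 2 (open). The grey line and band are the median and quartiles of all kept protein-coding genes in 10 classes of length. Filled points lie between 0.12 and 0.59, and the open ones between -0.03 and 0.44.

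The shRNAs were also compared with each other. In total RNA 0 of 7 export genes differed between TPR A and TPR D, as against 0.281% of all genes, and in the N/C ratio 0 of 7 and 0% of all genes did. At an unadjusted limma p below 0.05 were 0 of the 7 in both, beside 7.41% of all genes in total RNA and 0.335% in the N/C ratio. The differences (TPR A minus TPR D) ran from -0.31 to 0.23 on the log2 scale in total RNA, with NXF1 lowest and POLDIP3 highest.

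In most cultures the export genes stood lower in total RNA than in either fraction, a pattern chosen for report after the values were seen. In the 8 cultures other than control replicate 2, the scaled total level of ALYREF, DDX39B, DDX39A and POLDIP3 lay below both the nuclear and the cytoplasmic/ER level in 8 of 8. NXT1 and CHTOP did so in 7 of 8 and NXF1 in 6 of 8. Among all genes 18.4% did so in at least 7 of 8 cultures. Levels are relative to the median gene of each fraction, which need not be alike between fractions.

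Some of the helicase and adaptor mRNAs followed each other closely across libraries. Over the 27 libraries Pearson's r of log2 levels was 0.962 between ALYREF and DDX39A, 0.904 between the helicases and 0.849 between DDX39B and CHTOP. NXF1 and NXT1 had the lowest r of all pairs, 0.164, and r of NXF1 with the other export genes was at most 0.582. The adaptors CHTOP and POLDIP3, at 0.557, were no closer than NXF1 and DDX39A. Without the 3 libraries of control replicate 2 (24 libraries) the corresponding values were 0.964, 0.940, 0.833 and 0.120. The libraries share fractions and cultures, so that these values describe the set and carry no test.

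**Figure D5:**
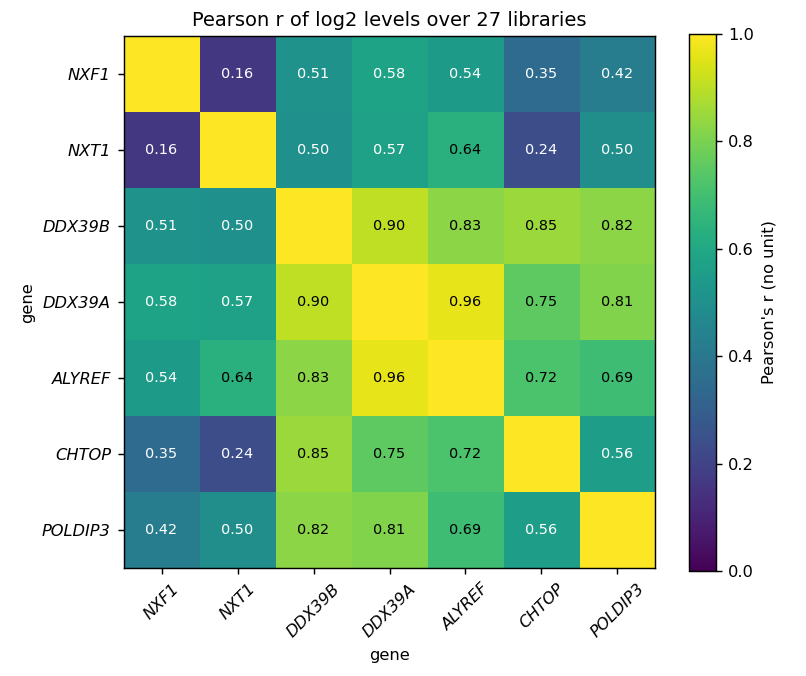
Pearson's r of log2 levels over 27 libraries for each pair of the 7 export genes (colour scale from 0 to 1). The block of DDX39B, DDX39A and ALYREF holds values from 0.83 to 0.96, and the NXF1 and NXT1 pair has the lowest, 0.16.

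Among all kept genes patterns most like NXF1 over the 27 libraries included those of YARS2 (r = 0.899), KLHDC4 (0.894), KIF22 (0.887) and SLCO4A1 (0.882). The closest gene to NXT1 was RPS13 (0.979), to ALYREF POP4 (0.962), to DDX39B EIF2B4 (0.973), to DDX39A TUBA3C (0.976), to CHTOP SNRNP35 (0.895) and to POLDIP3 WDR1 (0.955). TUBA3C has near-identical relatives, and its own level is uncertain.

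Other genes of the pathway were taken from lists of the THO complex, other adaptors, relatives of the receptor, cap-side factors, the TREX-2 complex and factors at the pore (the pore side). Of 37 listed genes 33 were tested. In control cells 8 of them were more nuclear and 2 more cytoplasmic than the median gene at the threshold, 10 of 33 where 39.4% of all genes passed. Their median log2 N/C ratio was 0.25, beside -0.20 for the export genes. Leaving out control replicate 2 gave 8 and 1 genes, with medians of 0.32 and, for the export genes, -0.00. The highest was RANBP2, a large nucleoporin of the cytoplasmic filaments (3.46, limma adjusted p = 6.22e-07).

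In the THO complex THOC2, its largest subunit (2.26), and THOC1 (1.31) were more nuclear and THOC6 (-0.68) more cytoplasmic. Among the adaptors RBM15 (1.20) and ZC3H11A (1.75) were more nuclear. So were NCBP1 (0.91), a subunit of the cap-binding complex, MCM3AP (0.79), the scaffold of TREX-2, and NUP98 (0.80), while SEM1 (-0.83), a small TREX-2 subunit, was more cytoplasmic. The calls of SEM1 and NUP98 were lost without any 1 of the 3 control cultures, that of THOC6 without control replicate 1 or 2, and that of MCM3AP without control replicate 1 or 3. Those of THOC1, THOC6 and SEM1 were also lost within replicates 2 and 3.

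With TPR depletion 1 of the 33 genes passed in total RNA, upward, and 0 downward, and that was RBM15, an RNA-binding protein that can also recruit NXF1. Of all genes 0.821% passed in this fraction with TPR A, 0.753% with TPR D and 1.14% with both together. RBM15 was at 6.54, 8.13 and 4.85 FPKM in control total RNA, at 19.1, 19.8 and 15.4 with TPR A and at 14.0, 21.9 and 15.5 with TPR D. All depleted values lay above all control values, and 6.92% of all genes were set apart so in either direction. Its log2 change was 1.54 with TPR A (limma adjusted p = 0.00120) and 1.46 with TPR D (limma adjusted p = 0.00160). RBM15 was also the 1 gene called in nuclear and cytoplasmic/ER RNA with each shRNA, with log2 changes of 1.25 to 1.50. There 0.479% to 0.903% of all genes passed. In the N/C ratio 0 of the 33 passed, and RBM15 was at 0.01 for both shRNAs.

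The medians of the lists in total RNA for both shRNAs were 0.02 for the THO complex, 0.05 for the other adaptors, -0.17 for the cap side, -0.01 for TREX-2 and -0.30 for the pore side. NXT2, the relative of NXT1 and the only tested gene of its list, was at 0.47. In the N/C change the medians were -0.06, 0.03, -0.05, 0.18 and 0.01, with NXT2 at -0.46, beside 0.32 for the 7 export genes and 0.00 for all genes. Without control replicate 2 the median of the export genes was 0.11.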

How the data were processed

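RNA Frac-Seq libraries were made from poly(A)+ RNA with a directional kit. The authors quantified reads with Salmon on Gencode protein-coding and lncRNA transcripts, used tximport to add these up per gene and deposited the FPKM. The authors named hg19 as their build and used DESeq2 for their own fold changes. Mitochondrially encoded genes and those averaging 1 FPKM or less were dropped (14611 of 34464 kept). The rest was scaled by median-of-ratios factors (0.954 to 1.06), 0.1 was added and log2 taken. All comparisons were contrasts of 1 limma 3.58.1 fit (R 4.3.3, lmFit, contrasts.fit, eBayes with trend) to 27 libraries in 9 groups, with Benjamini-Hochberg adjustment over all genes, a threshold of 0.05 and 95% intervals for single genes. On simulated data for both shRNAs in total RNA, over 14611 genes, 192 of 200 changed genes were recovered, with 8 false calls. The planted changes were of 2 or 3 on the log2 scale, up or down, larger than those fitted for the export genes. Noise was drawn independently for each library, and recovery of smaller changes was not simulated.

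Depth was estimated from low values of genes with 1 annotated transcript, 260 nt being subtracted from its length, and covers counting error only. Gene models and sequences came from GENCODE release 44 placed on GRCh37, a later release than the authors used, and 32776 gene IDs matched it. Tables and figures were made in Python 3.11.15 with pandas 2.3.3, numpy 2.4.6, scipy 1.17.1, Biopython 1.88 and matplotlib 3.10.9.

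The genes, lists and tests were chosen with earlier results of these data known. Named are the 7 export genes, TPR, pathway genes past the threshold or highest or lowest of their list, the 5 genes most like NXF1 (1 of them is not reported here) and the closest gene to each other export gene, and markers. NXF2 and PECAM1 were not analysed here. LUZP4, NXF3 and NXF5 were below the minimum.

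Deviations from group means of cultures with the same replicate number had correlations of 0.137 to 0.324 for control and TPR A in total RNA, over 0.1 in all 3 pairs. TPR A and TPR D did so in nuclear (0.131 to 0.266) and cytoplasmic/ER RNA (0.398 to 0.597), and the other pairs did not. Nuclear and cytoplasmic/ER libraries of 1 culture had 0.223 to 0.469. Alternatives were FPKM as deposited, pseudocounts of 1 and 0.01, no minimum, a minimum mean of 5 FPKM, no trend, replicate and culture blocks, 9 cultures left out in turn, and fits within replicate 1 and within replicates 2 and 3.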

Additional observations from a re-analysis of the deposited data

Results flagged for a closer look

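POLDIP3 moved one way in nuclear and the other way in total RNA with TPR depletion. In each of the 6 depleted cultures its scaled level lay above the control mean in nuclear RNA and below it in total RNA, a mean log2 change of 0.28 against -0.37, a difference of 0.65. The difference was not tested. Of all genes 1.66% showed such opposite directions between these fractions. The control means include the nuclear and total libraries of control replicate 2, which went against their labels. Without that culture the changes with TPR A were 0.20 in nuclear and 0.04 in total RNA. Those with TPR D were 0.05 and -0.19.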

How the results depend on the processing

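The number of export genes past the threshold was 1 for control N/C (NXT1) and 0 elsewhere under every alternative, the replicate block included (0 in total RNA with TPR A). Of 65 single-gene values, none crossed the threshold in 1127 alternatives with a test, and 25 changed sign in 47 of them, 15 of these without control replicate 2. Within replicate 1, where no test was possible, 21 of the 65 had the opposite sign, so that 32 values changed sign somewhere. None of the 32 had passed the threshold, and the cause was not tested. Leaving out 1 culture at a time gave the following log2 ranges. Control N/C ratios ran from -0.02 to 0.34 for NXF1, -0.29 to 0.13 for DDX39B and -0.18 to 0.32 for CHTOP. Total changes with TPR A ran from -0.24 to 0.10 for NXT1, -0.76 to 0.25 for ALYREF, -0.20 to 0.31 for DDX39B, -0.60 to 0.37 for DDX39A and -0.42 to 0.04 for POLDIP3. With TPR D they ran from -0.31 to 0.17 for NXT1, -0.71 to 0.31 for ALYREF, -0.26 to 0.25 for DDX39B and -0.72 to 0.25 for DDX39A. The nuclear change of NXT1 with TPR D ran from -0.00068 to 0.39. Cytoplasmic/ER changes with TPR A ran from -0.32 to 0.19 for ALYREF, -0.17 to 0.39 for DDX39B, -0.32 to 0.18 for DDX39A and -0.15 to 0.24 for POLDIP3, and with TPR D from -0.35 to 0.13 for ALYREF, -0.31 to 0.28 for DDX39A and -0.09 to 0.37 for POLDIP3. N/C changes with TPR D ran from -0.01 to 0.41 for NXF1, -0.18 to 0.38 for DDX39B, -0.08 to 0.42 for CHTOP and -0.20 to 0.23 for POLDIP3. With a minimum mean of 5 FPKM the total change was 0.04 for DDX39B with TPR A and 0.03 for NXT1 with TPR D. With FPKM as deposited, and with no minimum, the N/C change of POLDIP3 with TPR D was 0.01. Within replicates 2 and 3 CHTOP was at -0.10 in total RNA with TPR D, ALYREF at 0.08 and DDX39A at 0.15 in cytoplasmic/ER RNA with TPR A, ALYREF at 0.13 there with TPR D, and DDX39B at -0.06 in the N/C change with TPR D.

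Counts over all genes moved more. Total RNA with TPR A gave 120 genes, from 1 within replicates 2 and 3 to 378 with the replicate block, and TPR D gave 110 (0 to 461) and both shRNAs 166 (0 to 560) under the same settings. Nuclear RNA gave 132 (5 to 375) and 70 (0 to 229), cytoplasmic/ER RNA 91 (3 to 328) and 84 (0 to 261), TPR A against TPR D 41 (1 to 156), and control N/C 5750 (3231 within replicates 2 and 3 to 6720 with a culture block). N/C changes gave 0 to 2 genes. RBM15 kept its call in total RNA except within replicates 2 and 3, where few genes passed. The block changed no call of an export gene.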
